A study of Mus musculus with 15 samples.

Results

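Neutrophils find a site of infection or injury through G protein-coupled receptors on their surface, and 7 genes for such receptors were read here in mouse blood from a study of oral cancer: Fpr1, Fpr2, Cxcr1, Cxcr2, Cxcr4, Ccr1 and Ptafr. They were chosen by name as chemoattractant receptors that neutrophils are known for, at a time when earlier results of these data had been seen. Each was found once among the 55416 gene identifiers of the count files. The receptors pass their signal through inhibitory G proteins to phosphoinositide 3-kinase gamma and Rac, which drive the cell forward, and are then switched off by receptor kinases, arrestins and RGS proteins. Formyl peptide receptors sense peptides of bacteria and damaged mitochondria, Cxcr2 and Cxcr1 sense CXC chemokines made in inflamed tissue, Ccr1 senses CC chemokines and Ptafr senses platelet-activating factor, a lipid. Cxcr4 works the other way, since its ligand Cxcl12 holds neutrophils in the bone marrow, and a neutrophil in blood is known to lose Cxcr2 and gain Cxcr4 as it ages.

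Whole blood RNA from 15 mice was sequenced, 1 library per mouse, to ask how the timing of neck dissection (ND, removal of the cervical lymph nodes) after checkpoint blockade bears on the blood. Of the wild type C57BL/6 mice, 5 were untreated without surgery, 5 had been given 2 doses of αCTLA-4, an antibody against the checkpoint receptor CTLA-4, and then early ND, and 5 the same antibody and then late ND. The labels give 1 growth protocol for all samples, in which 4MOSC1 cells, a mouse oral squamous carcinoma line, were placed in the tongue and grown for 10 days. The sources differ on whether the late ND mice had already been operated on at the bleed, so late ND is the name of the group. No group carries a label of the drug without surgery. With the date of the late surgery open, the drug and the surgery cannot be told apart against untreated mice.

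The libraries held between 5527108 and 13924361 counts on genes, and levels are given as CPM, counts scaled to 1000000 per library, with the library size corrected by the trimmed mean of M values (TMM). The 4 hemoglobin genes took 38.3 to 64.1% of gene counts in early ND mice, 14.9 to 29.3% in late ND mice and 31.6 to 61.7% in untreated mice. In 3 libraries, those of untreated mouse 2 and late ND mice 2 and 3, the 18S ribosomal RNA gene Rn18s-rs5 was at 313 to 766 CPM of gene counts, against at least 13402 in the other 12. Of 10 mature neutrophil markers none was at 0 in any library, so neutrophil RNA was present throughout. In such bulk RNA, fewer neutrophils and less receptor RNA per neutrophil cannot be told apart. Whether the replicates were separate experiments beyond being separate mice is not stated. Each p-value sets a difference between groups against the spread between these mice only.

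In late ND blood 6 of the 7 receptors stood higher than in early ND blood by 1.64 to 2.44 times, with unadjusted p-values under 0.05, and Cxcr4 stood apart. With edgeR's quasi-likelihood test and Benjamini-Hochberg adjustment over the 13315 genes tested, 0 of the 7 passed an adjusted p of 0.05, while 2.5% of all genes were called higher and 2.48% lower. An unadjusted p under 0.05 with a higher level was reached by 6 of the 7 receptors and by 14.4% of all genes. DESeq2 called 5 of the 7 higher, against 5.5% of the 14344 genes to which it gave an adjusted p. The 333 higher and 330 lower genes became 201 and 338 with RLE size factors, with 0 of the 7 called by edgeR and 6 at an unadjusted p under 0.05. They became 886 (3.09% of genes, with 5 of the 7) and 396 without a filter on low counts, and 8923 (67% of genes, with 7 of the 7) and 137 with library totals. The median log2 fold change was 1.07 over the receptors and 0.014 over all genes tested.

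**Figure D1:**
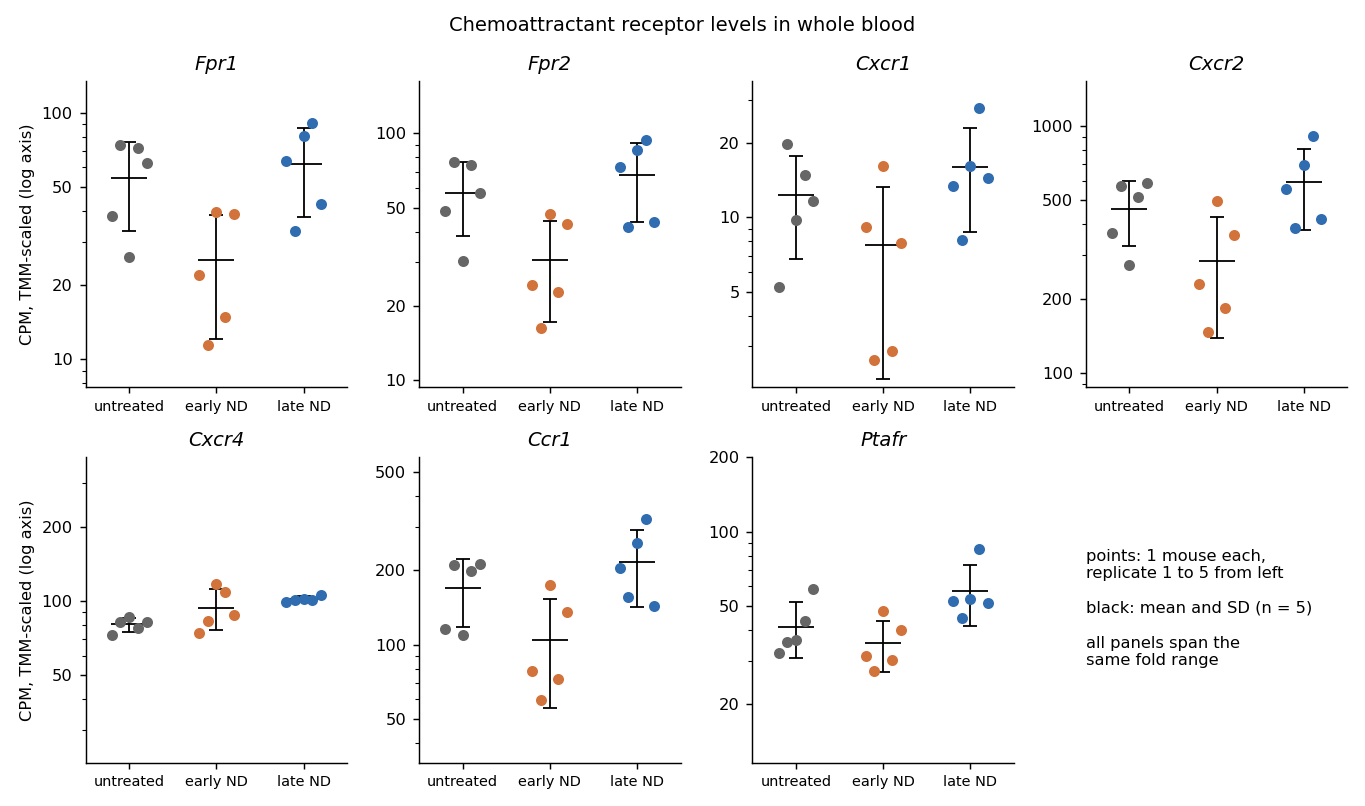
Level of each receptor (CPM on TMM-scaled library sizes, log axis) in the 5 untreated, 5 early ND and 5 late ND mice, with 1 point per mouse and the mean and SD in black. In the early ND group mice 2 and 4 are the lowest points of Fpr1, Fpr2, Cxcr1 and Cxcr2, while all Cxcr4 points lie between 72.8 and 117 CPM.

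Fpr1, the high-affinity receptor for bacterial formyl peptides, had the largest fold difference of the 7. It is ENSMUSG00000045551, on the minus strand at chr17:18096733-18104202 of the GRCm39 build. In untreated mice 1 to 5 it was at 38.2, 73.8, 25.9, 71.8 and 62.7 CPM. After early ND it was at 21.9, 11.4, 39.7, 14.8 and 38.9 CPM, and in late ND mice at 63.8, 33.1, 80.4, 90.8 and 42.6 CPM. Early ND mice 1, 2 and 4 lay below every untreated mouse, and 4 of the 5 late ND mice lay above every early ND mouse, with late ND mouse 2 as the exception. The mean was 25.3 ± 13.3 CPM (SD, n = 5) after early ND and 62.1 ± 24.4 CPM (SD, n = 5) in late ND mice. The log2 fold change of late against early ND was 1.29 ± 0.36 (SE, edgeR unadjusted p = 0.0038, adjusted p = 0.0582). Late ND mice differed from untreated mice by 0.16 ± 0.31 on the log2 scale (SE; edgeR adjusted p = 0.859).

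Fpr2, which also binds annexin A1 and serum amyloid A, lies 3867 bases from Fpr1 on the plus strand (ENSMUSG00000052270, chr17:18108070-18114215). Its levels in untreated mice 1 to 5 were 48.2, 76.3, 30.5, 74.4 and 57.4 CPM. The early ND mice had 24.3, 16.2, 46.9, 22.7 and 42.8 CPM, and the late ND mice 73.1, 41.9, 85.4, 94.0 and 43.9 CPM. The same 3 early ND mice as for Fpr1 were below all untreated mice, and late ND mice 1, 3 and 4 were above all early ND mice. The log2 fold change of late against early ND was 1.15 ± 0.31 (SE; edgeR unadjusted p = 0.00298, adjusted p = 0.0529). Of the exon bases of Fpr2, 7.01% are shared with Fpr3 on the same strand, and Fpr3 was at 0 counts in all 15 libraries. Exons of the other 6 receptors overlap no other annotated exon on either strand.

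The ratio of Fpr1 to Fpr2 within a library is free of the scaling between libraries. Its log2 value was -0.11 ± 0.18 in untreated, -0.33 ± 0.22 in early ND and -0.14 ± 0.13 in late ND mice (SD, n = 5 each). No pair of groups differed beyond the spread, with p = 0.159 for late against early ND, 0.119 for early ND against untreated and 0.683 for late ND against untreated (exact permutation tests, two-sided).

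Cxcr2 (ENSMUSG00000026180, chr1:74193150-74200405, plus strand) is the main receptor through which Cxcl1, Cxcl2 and their relatives call neutrophils out of the marrow and into tissue. It was at 369, 569.9, 274, 515 and 587 CPM in untreated mice 1 to 5. The early ND mice had 230.4, 146, 499, 183 and 363 CPM, and the late ND mice 558, 388, 696, 912 and 419 CPM. Early ND mouse 3 reached the range of the other groups, whereas mice 1, 2 and 4 stayed below all untreated mice. The mean was 284 ± 145 CPM (SD, n = 5) after early ND and 594 ± 216 CPM (SD, n = 5) in late ND mice. The log2 fold change of late against early ND was 1.07 ± 0.34 (SE, edgeR unadjusted p = 0.00841, adjusted p = 0.0841).

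Cxcr1 (ENSMUSG00000048480, chr1:74230944-74233790, minus strand), the near relative of Cxcr2 that lies 30538 bases from it, was the receptor with the fewest reads, from 8 to 374 counts per library. Its levels were 5.23, 19.8, 9.78, 14.9 and 11.6 CPM in untreated mice and 9.17, 2.65, 16.1, 2.89 and 7.86 CPM after early ND. In late ND mice they were 13.3, 8.10, 16.2, 27.6 and 14.4 CPM. The groups overlapped widely, and late ND mouse 3 exceeded early ND mouse 3 by less than 1 CPM. The log2 fold change of late against early ND was 0.97 ± 0.43 (SE; edgeR unadjusted p = 0.0413, adjusted p = 0.189), the widest error of the 7.

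Cxcr4 (ENSMUSG00000045382, chr1:128515936-128520044, minus strand), the receptor for the marrow retention signal Cxcl12, is also carried by lymphocytes and monocytes and varied least between mice. It was at 72.8, 82.5, 86.3, 77.6 and 82.2 CPM in untreated mice, and at 74.4, 82.7, 117, 109 and 87.5 CPM after early ND. In late ND mice the values were 99.0, 101, 102, 101 and 106 CPM, an SD of 2.57 around a mean of 102. All late ND values lay within the range of the early ND values, with a log2 fold change of 0.14 ± 0.13 (SE; edgeR unadjusted p = 0.305, adjusted p = 0.566). Every late ND mouse lay above every untreated mouse, as for 2.5% of all genes, and this was the one receptor of which that held.

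The 250 bases upstream of the annotated start are shown for Cxcr2 and Cxcr4, the pair whose ratio is followed below, read from GRCm39 with the GENCODE annotation and written 5′ to 3′ toward the gene. Capitals mark GAGGAA, the core of sites for the myeloid factor PU.1, in either direction (TTCCTC is its reverse), and ACGTG, the core of sites for hypoxia-inducible factors, whose matches on both strands overlap in the letters CACGTG.
Cxcr2, chr1:74192900-74193149, + strand: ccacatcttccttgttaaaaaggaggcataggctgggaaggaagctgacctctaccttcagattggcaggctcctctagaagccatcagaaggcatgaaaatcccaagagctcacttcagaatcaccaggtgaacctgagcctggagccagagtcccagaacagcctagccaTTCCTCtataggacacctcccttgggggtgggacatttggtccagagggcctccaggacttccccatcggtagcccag
Cxcr4, chr1:128520045-128520294, - strand: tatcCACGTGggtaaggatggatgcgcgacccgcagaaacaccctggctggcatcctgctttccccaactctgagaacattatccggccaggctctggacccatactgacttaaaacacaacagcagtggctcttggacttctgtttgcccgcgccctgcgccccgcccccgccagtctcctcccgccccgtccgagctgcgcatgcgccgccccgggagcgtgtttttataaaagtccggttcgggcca
The Cxcr2 window holds GAGGAA on the minus strand, 78 to 73 bases before the start, and the Cxcr4 window holds ACGTG on both strands, 245 to 241 and 246 to 242 bases before it. G and C make up 54.4% of the former window and 61.6% of the latter, against a median of 53.2% over 21757 promoters. GAGGAA occurs in 22.9% of those promoters and in 3 of the 7 receptors (Cxcr2, Ccr1 and Ptafr), and ACGTG in 17% of them and in 1 of the 7.

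Ccr1 (ENSMUSG00000025804, chr9:123762161-123768734, minus strand) binds several CC chemokines, among them Ccl3, Ccl5, Ccl6 and Ccl9, and is found on neutrophils and monocytes. It was at 116, 210.0, 109.6, 199 and 213 CPM in untreated mice 1 to 5. The early ND mice had 77.9, 59.5, 174, 72.9 and 136 CPM, and the late ND mice 204, 156, 258, 322 and 143 CPM. As for Cxcr2, early ND mice 1, 2 and 4 were below all untreated mice, and late ND mice 1, 3 and 4 were above all early ND mice. The log2 fold change of late against early ND was 1.07 ± 0.32 (SE; edgeR unadjusted p = 0.00513, adjusted p = 0.0664). Its upstream window is shown because Cxcr2 was the gene whose level it followed most closely, as given further on. Capitals mark GAGGAA and, as the reverse ACCACA, the RUNX core TGTGGT, which is found in 13% of promoters and also in the window of Cxcr1.
Ccr1, chr9:123768735-123768984, - strand: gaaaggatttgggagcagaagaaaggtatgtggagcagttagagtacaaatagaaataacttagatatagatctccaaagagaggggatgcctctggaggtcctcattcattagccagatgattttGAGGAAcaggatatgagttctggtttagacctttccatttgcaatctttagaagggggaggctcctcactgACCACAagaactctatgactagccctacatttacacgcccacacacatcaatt
The matches lie 124 to 119 and 53 to 48 bases before the start, and G and C make up 42.8% of the window. The windows of Fpr1 and Fpr2 hold no match to either motif, to ACGTG or to the C/EBP motif TTGCNNAA, which is present in 9.34% of promoters and in 0 of the 7.

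Ptafr (ENSMUSG00000056529, chr4:132291363-132309994, plus strand), the receptor for platelet-activating factor, differed less between groups but with a smaller error. Untreated mice 1 to 5 had 32.2, 35.6, 36.3, 43.4 and 58.7 CPM. Early ND mice had 31.3, 27.3, 47.6, 30.3 and 39.9 CPM, and late ND mice 52.4, 44.6, 53.2, 85.2 and 51.4 CPM. Late ND mouse 4 stood well above the rest, and late ND mouse 2 was the only one of its group below an early ND mouse. The log2 fold change of late against early ND was 0.71 ± 0.20 (SE; edgeR unadjusted p = 0.00318, adjusted p = 0.0544).

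The adjusted p-values of Fpr2, Ptafr and Fpr1 lay just above the threshold, and single mice decided the call. Without early ND mouse 3, all receptors but Cxcr4 were called higher in late ND mice, with adjusted p-values of 0.0174 to 0.0384 by edgeR. In that fit 7.73% of all genes were called higher. Without late ND mouse 2, Fpr1, Fpr2 and Ptafr were called (edgeR adjusted p = 0.0375, 0.0375 and 0.0453), against 3.74% of all genes, and leaving out any other mouse gave 0 calls among the receptors. Late ND mouse 2 is also poor in 18S sequence. Within the 8 libraries rich in 18S the log2 fold changes were 0.83 for Ptafr, 1.10 for Ccr1, 1.14 for Cxcr2, 1.18 for Cxcr1, 1.19 for Fpr2 and 1.36 for Fpr1, none past adjustment (edgeR adjusted p = 0.0716 to 0.16), and the libraries poor in 18S include no early ND mouse.

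**Figure D2:**
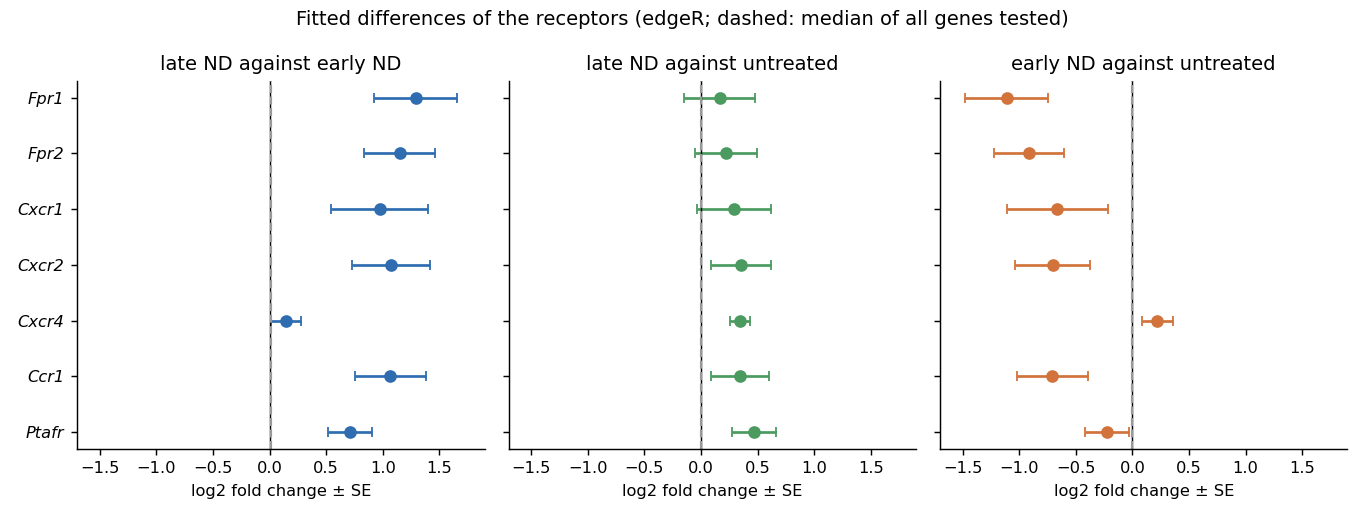
Log2 fold change of the 7 receptors with its standard error (edgeR) in the 3 comparisons, with the median of all genes tested as a dashed line. In late against early ND all receptors but Cxcr4 lie between 0.71 and 1.29, in late ND against untreated all 7 lie between 0.16 and 0.47, and in early ND against untreated Cxcr4 alone lies above 0.

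Against untreated blood, the fitted differences of late ND mice were small and above 0 for each receptor, most of them within the spread. Cxcr4 had the smallest error. Here edgeR called 0 of the 7 at an adjusted p of 0.05, against 0.989% of 13547 genes called higher, and DESeq2 called 1, Cxcr4, against 1.9% of the genes to which it gave an adjusted p. With an unadjusted p under 0.05, Cxcr4 and Ptafr were higher, 2 of the 7, against 8.69% of all genes. Cxcr4 stood at 80.3 ± 5.23 CPM in untreated and 102 ± 2.57 CPM in late ND mice (SD, n = 5 each) without overlap between the mice, as did 2.5% of all genes, with a log2 fold change of 0.35 ± 0.09 (SE; edgeR unadjusted p = 0.00241, adjusted p = 0.0649). Ptafr differed by 0.47 ± 0.19 (SE; edgeR unadjusted p = 0.0317, adjusted p = 0.234), and late ND mouse 4 was its only value above all untreated mice. The remaining 5 receptors had fitted differences of 0.16 to 0.36 with errors of 0.26 to 0.33 on the log2 scale. None of these reached an unadjusted p under 0.05 by edgeR. For Fpr1 the sign turned to -0.01 without untreated mouse 3 and to -0.02 without late ND mouse 4.

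Early ND mice had lower means than untreated mice for every receptor but Cxcr4, yet no gene among 12151 was called lower by edgeR (0% of genes, and 0 of the 7) and DESeq2 called none of the 7 and 0% of genes lower. Unadjusted p-values under 0.05 with a lower level were found for 3 of the 7, against 2.33% of all genes. These were Fpr1 at a log2 fold change of -1.11 ± 0.37 (SE; edgeR unadjusted p = 0.0105), Fpr2 at -0.91 ± 0.31 (edgeR unadjusted p = 0.0117) and Ccr1 at -0.71 ± 0.31 (edgeR unadjusted p = 0.0412), each with an adjusted p of 0.938. Cxcr2 differed by -0.70 ± 0.33, Cxcr1 by -0.66 ± 0.45 and Ptafr by -0.23 ± 0.19. Cxcr4 was on the other side at 0.22 ± 0.14, with 3 of the 5 early ND mice above all untreated mice. The early ND libraries are the shared base of the comparisons with late ND and with untreated mice, so a low early ND value enters both.

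The mean log2 ratio of Cxcr2 to Cxcr4 within a library was lower after early ND than in untreated mice. The log2 ratio of their counts was 2.34, 2.79, 1.67, 2.73 and 2.83 in untreated mice 1 to 5. It was 1.63, 0.82, 2.10, 0.75 and 2.05 after early ND, and 2.49, 1.94, 2.77, 3.17 and 1.98 in late ND mice. As plain ratios, early ND mice 2 and 4 had 1.77 and 1.69 counts of Cxcr2 per count of Cxcr4, and late ND mouse 4 had 9.03. The ratio was lower by 1.00 on the log2 scale after early ND than in untreated mice (exact permutation test, two-sided, p = 0.0317, adjusted p = 0.0476 over 3 ratios). This adjustment covers the ratios of a single comparison, and none was made over the comparisons together. Late ND was 1.00 above early ND (exact permutation test, p = 0.0476, adjusted p = 0.143) and 0.0012 above untreated mice (exact permutation test, p = 1). Early ND mice 2 and 4 also had the lowest means of 10 mature neutrophil markers among the 15, at 6.34 and 6.68 log2 CPM. That marker mean correlated at 0.952 with Cxcr2 and 0.127 with Cxcr4 over the 15 libraries. The part of these low marker levels, or of neutrophil number or age, in the ratio was not tested.

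Set against Csf3r alone, the G-CSF receptor gene, which neutrophils carry as well, Cxcr2 was also lower on average after early ND. Csf3r differed least of the 10 mature neutrophil markers between early ND and untreated mice, by -0.33 on the log2 scale against a median of -1.06, and against the mean of all 10 the early ND mice had the higher Cxcr2 value, 0.82 compared with 0.61. The log2 ratio was -1.24, -1.49, -1.81, -1.50 and -1.48 in untreated mice. After early ND it lay between -2.30 and -1.56, and in late ND mice it was -1.39, -1.92, -1.79, -1.50 and -1.84. Early ND was lower than untreated by 0.43 (exact permutation test, p = 0.0238, adjusted p = 0.0476), with early ND mice 1, 2 and 4 below every untreated mouse. Late ND lay 0.25 above early ND (exact permutation test, p = 0.143, adjusted p = 0.159) and 0.19 below untreated mice (exact permutation test, p = 0.222, adjusted p = 0.667). For both ratios the call of early ND against untreated rested on single mice, since it was lost on leaving out any mouse other than early ND mouse 5 or untreated mouse 3 (exact permutation tests, adjusted p up to 0.107). In the 9 libraries rich in 18S the differences were -0.92 for Cxcr2 to Cxcr4 and -0.43 for Cxcr2 to Csf3r, each with an adjusted p of 0.107 by the exact permutation test.

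**Figure D3:**
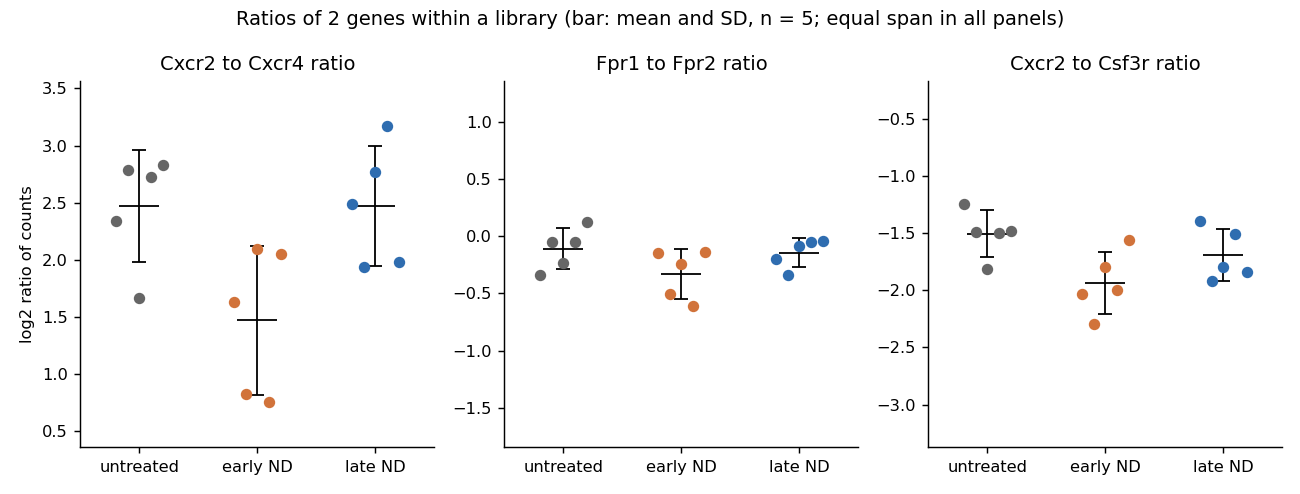
Log2 ratio of the counts of 2 genes in the same library, by group, with 1 point per mouse and the mean and SD in black, on axes of equal span. The Cxcr2 to Cxcr4 ratio averages 2.47 in untreated, 1.47 in early ND and 2.47 in late ND mice, and the Fpr1 to Fpr2 ratio spans less than 1 log2 unit.

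Per kilobase of exon, Cxcr2 was the most abundant receptor in blood, at a mean of 147 CPM per kilobase over the 15 mice. Ccr1 followed at 57.6, Cxcr4 at 50.5, Fpr2 at 39.5, Fpr1 at 35.7, Ptafr at 12.2 and Cxcr1 at 7.78 CPM per kilobase. Cxcr2 exceeded Ccr1 in 15 of 15 libraries and Fpr1 exceeded Ptafr in 15 of 15. The order of Ccr1 and Cxcr4 was not settled, with Ccr1 the higher in 7 of 15 libraries, and Cxcr4 exceeded Fpr2 in 10 of 15. Fpr2 was above Fpr1 in 14 of 15 libraries by a median of 0.16 on the log2 scale, and Ptafr above Cxcr1 in 14 of 15. The place of Cxcr4 differed by group. Its mean of 51.6 CPM per kilobase after early ND was above the 36.7 of Ccr1. In late ND mice its 55.9 was below the 76.3 of Ccr1.

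Over the 15 libraries, the 6 receptors other than Cxcr4 followed each other with Pearson correlations of log2 CPM between 0.753 and 0.990, and Cxcr4 followed them with 0.0717 to 0.440. These values describe 15 libraries that also share differences in depth and composition. Among 9454 genes whose mean count was 50 or more, the genes most like Fpr1 were Fpr2 (0.988), Mcemp1, S100a8, Trem1 and Clec4d (0.977). Fpr2 was closest to Fpr1, S100a8, S100a6, Retnlg and Il1r2 (0.979). S100a8, a subunit of the neutrophil protein calprotectin, was in both lists. Cxcr2 was closest to Ccr1 (0.990), Tnfsf14, Fbxl5, Picalm and Rufy4 (0.982), and Ccr1 to Cxcr2, Il36g, Slc2a6, Tnfsf14 and Rufy4 (0.977). Ptafr was closest to Ptpre (0.961), Rnf149, Slc11a1, Abr and 5031439G07Rik (0.946), and Cxcr1 to Rtf2 (0.951), Nlrp12, Mirt2, Lin28a and Gm48780 (0.934). The genes most like Cxcr4 were less close, namely Zbtb16 (0.845), Trim41, Gm36279, Nf1 and A830035O19Rik (0.763).

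All receptors but Cxcr4 moved with the markers of mature neutrophils. The 10 mature neutrophil markers (among them Csf3r, S100a8, S100a9, Mmp8 and Ly6g) summed to 2392 to 7353 CPM in early ND mice, 5632 to 15229 CPM in late ND mice and 4451 to 11751 CPM in untreated mice. In late ND mice 3 of the 10 were called higher than after early ND, Mmp8, Cd177 and Itgam, against 2.5% of all genes. All 10 of 10 were higher with an unadjusted p under 0.05 (edgeR), against 14.4% of all genes. The median log2 fold change of the 10 was 1.23. Of the exon bases of Itgam, 67.4% are shared with Gm49368 on the same strand. Compared with untreated mice 8 of the 10 were lower after early ND with an unadjusted p under 0.05, against 2.33% of all genes. In that comparison 0 of 10 were called (edgeR). The count of 3 became 8 without early ND mouse 3 (7.73% of all genes) and 6 without late ND mouse 2 (3.74%). It was 1 without early ND mouse 5, and 0 without any of the other 7 mice. Their mean log2 CPM correlated at 0.974 with Fpr2, 0.966 with Fpr1, 0.952 with Cxcr2, 0.926 with Ccr1, 0.829 with Cxcr1, 0.759 with Ptafr and 0.127 with Cxcr4 over the 15 libraries.

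Relative to that marker mean, Cxcr2 lay at a log2 difference of 0.61 ± 0.39 in untreated, 0.82 ± 0.05 in early ND and 0.65 ± 0.28 in late ND mice (SD, n = 5 each). Fpr1 lay at -2.53 ± 0.30, -2.69 ± 0.18 and -2.64 ± 0.22 in the same order, so for both genes the group means differed by less than the SD within the untreated group. Cxcr4 lay at -1.86 ± 0.72 in untreated, -0.65 ± 0.68 in early ND and -1.83 ± 0.62 in late ND mice. Ptafr lay at -2.85 ± 0.70, -2.07 ± 0.43 and -2.69 ± 0.39. For these last 2 genes the early ND mice were the highest, and the groups overlapped. These differences are a description, and the share of neutrophil number in the receptor levels was not tested.

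**Figure D4:**
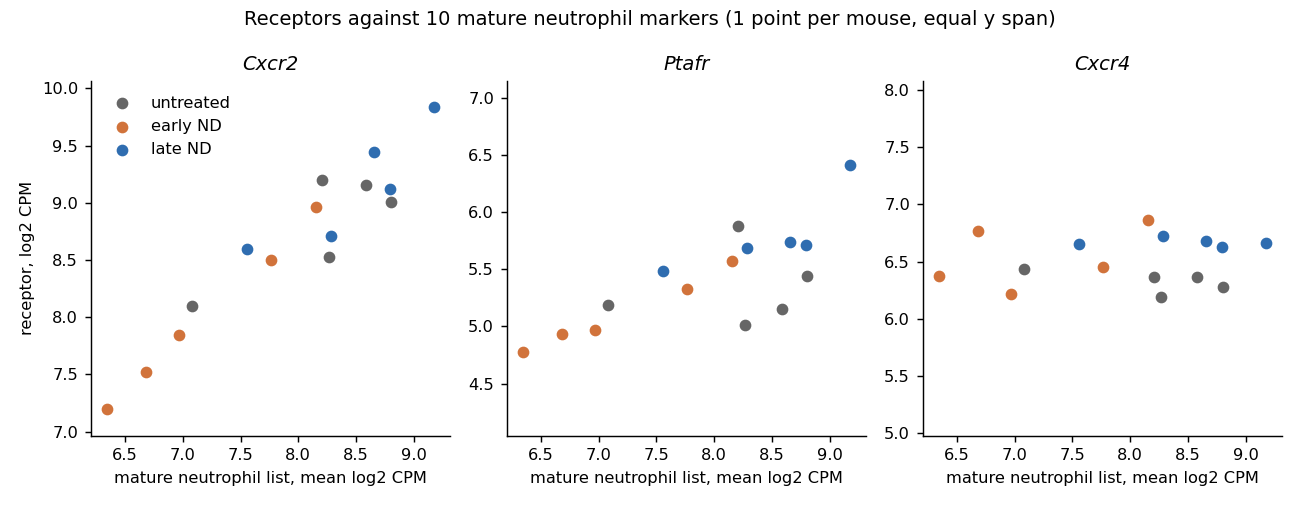
Log2 CPM of Cxcr2, Ptafr and Cxcr4 against the mean log2 CPM of 10 mature neutrophil markers, with 1 point per mouse and equal spans on the vertical axes. Cxcr2 climbs with the markers (r = 0.952), Ptafr less closely (0.759), and Cxcr4 stays nearly level (0.127). Its late ND points lie above the untreated ones, as for 2.5% of all genes.

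Other blood cells also differed between the groups. Of 8 monocyte markers, Csf1r and Fn1 were called higher in late ND mice than after early ND, against 2.5% of all genes. The sum of the 8 ranged over 511 to 1021 CPM after early ND, 810.4 to 1195 CPM in late ND mice and 468 to 855 CPM in untreated mice. Of 6 erythroid markers 5 were tested and all 5 were called lower in the late ND group than in the early ND group. The share over all genes was 2.48%. The median log2 fold change of the 5 was -2.75. Of the hemoglobin genes 1 of 4 was called lower in that comparison. The 10 immature neutrophil markers summed to 288 to 1130 CPM after early ND, 1059 to 1615 CPM in late ND mice and 266 to 1032 CPM in untreated mice. Chil3 and Lcn2 led that sum, at means of 886 and 479 CPM in late ND mice. Of the 6 tested in late against early ND, 0 were called by edgeR. A log2 fold change above 0 was found for 4, and 3 of them had an unadjusted p under 0.05, against 14.4% of all genes. The other 2 of the 6, Ltf and Camp, went the other way, at -0.07 and -0.42. Mpo, Elane, Ctsg and Ms4a3 were at 0 in some libraries. None of the B cell, T cell, NK cell, platelet, basophil, eosinophil or skin gland markers was called in late against early ND. The median log2 fold changes of these 7 lists, in that order, were -0.30, -0.27, -0.20, -0.43, -0.48, -0.06 and 0.69, with 7, 8, 6, 6, 3, 2 and 3 markers tested. Cxcr4 correlated with the T cell list at -0.655 and the monocyte list at 0.344, and the part of these cells in its level was not tested.

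Downstream of the receptors, 5 genes passed the test in late against early ND, 4 of them signal transducers. A list of 69 further genes of the pathway, also chosen with earlier results of these data known, was read in the same fit. Of these 57 were tested, and 5 were called higher and 0 lower than after early ND, against 2.5% and 2.48% of all genes. The median log2 fold change was 0.31. The 5 include both regulatory subunits of phosphoinositide 3-kinase gamma, Pik3r5 at 0.58 ± 0.15 and Pik3r6 at 0.75 ± 0.20 (SE; edgeR adjusted p = 0.0488 and 0.0471). They further include Prex1, the Rac activator that this kinase and G protein beta-gamma subunits switch on, at 0.55 ± 0.14 (edgeR adjusted p = 0.0466), and Gnb2, a G protein beta subunit, at 0.74 ± 0.16 (edgeR adjusted p = 0.029). The fifth was Rgs19, which shortens the signal of inhibitory G proteins, at 0.51 ± 0.13 (edgeR adjusted p = 0.0472). Exons of Gnb2 and Rgs19 overlap other genes on the opposite strand over 16.5% and 15.8% of their length, and those of Gnb2 also on its own strand over 7.63%. The 5 calls became 17 without early ND mouse 3 (7.73% of all genes) and 10 without late ND mouse 2 (3.74%). They became 6 without early ND mouse 5, 1 without late ND mouse 1, and 0 without any of the other 6 mice. They were 18 with DESeq2, against 5.5% of the genes to which it gave an adjusted p, and 0 in the 8 libraries rich in 18S.

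All 19 signal transducers had a log2 fold change above 0 in late against early ND, as did 51.8% of all genes tested. Of the 19, 4 were called, and their median over the 19 was 0.38. The part of blood cell composition in these levels was not tested. Fgr, a Src family kinase of myeloid cells, had the largest value at 0.83 ± 0.23 (edgeR adjusted p = 0.0577), and Rac2, the Rac of blood cells and one of the 4 most abundant pathway genes, had 0.60 ± 0.16 (edgeR adjusted p = 0.0548). Of 10 genes of desensitisation (receptor kinases, arrestins and RGS proteins), Rgs19 was called higher and 0 lower, with a median of 0.28. Rgs18, an RGS protein of platelets, had the largest absolute value at -0.60 ± 0.19 (edgeR adjusted p = 0.0843).

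Of 23 other chemoattractant receptors 15 were tested and 0 were called in late against early ND by edgeR. With an unadjusted p under 0.05, 7 were higher and 1 lower, against 14.4% and 9.33% of all genes. Ltb4r1, the leukotriene B4 receptor of neutrophils, had the largest log2 fold change at 1.05 ± 0.34 (edgeR adjusted p = 0.0841), close to that of Cxcr2. Fpr3, Fpr-rs3, Fpr-rs4, Fpr-rs6 and Fpr-rs7 were at 0 counts in all 15 libraries. Of 17 ligands and ligand enzymes 13 were tested and 0 called by edgeR in that comparison. At an unadjusted p under 0.05, 5 were higher and 0 lower, against the same 14.4% and 9.33% of all genes. Saa3, a serum amyloid A and thus a ligand gene of Fpr2, had the largest log2 fold change of the list at 2.76 ± 0.99 (edgeR adjusted p = 0.112), and ranged from 3.97 to 103 CPM in late ND mice and from 0.382 to 12.04 CPM in early ND mice. The most abundant ligand genes per kilobase were the platelet chemokines Ppbp at a mean of 686 and Pf4 at 205 and the myeloid chemokine Ccl6 at 165 CPM per kilobase. Their log2 fold changes in late against early ND were -0.48 ± 0.24, -0.39 ± 0.22 and 0.66 ± 0.26 (edgeR adjusted p = 0.25, 0.315 and 0.149).

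**Figure D5:**
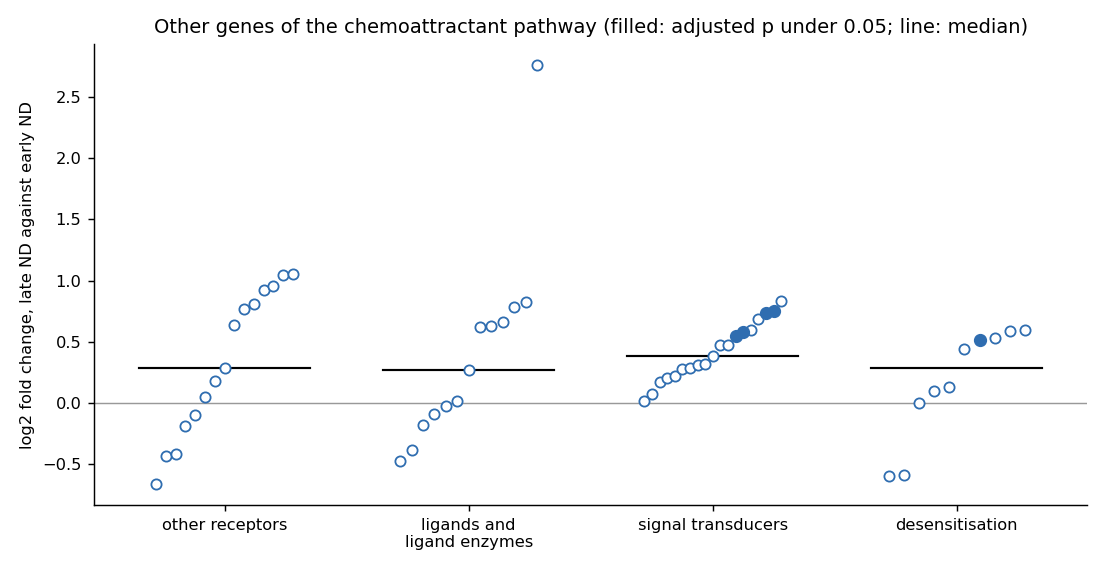
Log2 fold change of late against early ND for the 57 tested genes of the pathway list, by role, with filled points for an adjusted p under 0.05 (edgeR) and a line at the median of each role. The 19 signal transducers all lie above 0, as do 51.8% of all genes tested. Of the transducers 4 are filled, and the filled point among the desensitisation genes is Rgs19.

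Against untreated mice, 3 of 58 tested pathway genes were called higher in late ND mice, against 0.989% of all genes, and 0 lower. They are named here after their values were seen. Ccr2, the receptor that brings monocytes out of the marrow, rose by 1.11 ± 0.18 on the log2 scale (edgeR adjusted p = 0.0242), from 182 ± 39.2 to 394 ± 78.5 CPM (SD, n = 5 each). Cmklr1, the chemerin receptor, rose by 1.19 ± 0.23 (edgeR adjusted p = 0.025), and Ccl9, a ligand gene of Ccr1, by 0.75 ± 0.18 (edgeR adjusted p = 0.0423). In the same comparison all 8 monocyte markers had a log2 fold change above 0, with a median of 0.53, and Csf1r (0.73) and Fn1 (1.76) were called higher. Over all genes, 50.4% were above 0 and 0.989% were called higher. Monocyte markers summed to 468 to 855 CPM in untreated and 810.4 to 1195 CPM in late ND mice, with none at 0 in any library. Of 6 immature neutrophil markers tested there, Chil3 (1.43) and Prtn3 (1.61) were called higher (edgeR adjusted p = 0.0261 and 0.0475). A log2 fold change below 0 was found for 3 of the 6. The part of monocytes or immature neutrophils in the levels of Ccr2, Cmklr1 and Ccl9 was not tested. The 3 pathway calls stayed at 3 without untreated mouse 4 or 5 and fell to 2 without untreated mouse 2. They fell to 1 without untreated mouse 1 or late ND mouse 3, and to 0 without any of the other 5 mice. In early ND against untreated, 0 of 54 tested pathway genes were called by edgeR. With an unadjusted p under 0.05, 0 were higher and 2 lower, against 2.11% and 2.33% of all genes.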

How the data were processed

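Blood was drawn from 15 mice (5 untreated, 5 early ND, 5 late ND). The authors aligned read pairs with STAR 2.7.9 and deposited HTSeq-count 0.13.5 counts per gene, not normalized. Their methods name GRCm39, and the submitters' processing notes also list mm10. The strand setting and annotation release are not given in the sources used here. The 5 closing rows of each file, which count records given to no gene (75.6 to 88.1% of all records counted, with 44.1 to 75.2% of all aligned to several places), were left out. Of 55416 gene identifiers, 54749 matched GENCODE vM39, which gave symbols, exon lengths and the upstream windows.

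Counts were tested with edgeR 4.0.16 (filterByExpr, TMM, glmQLFit, glmQLFTest; R 4.3.3) on the 10 libraries of each pair of groups, with Benjamini-Hochberg adjustment over all genes tested. In simulated data of the late against early ND comparison, 182 of 200 genes changed by a log2 of 2 were recovered among 13227, with 8 false calls. The receptors differed by at most 1.29 there, and recovery of changes of that size was not simulated. Log2 levels and ratios used counts plus 0.5. In each comparison 3 ratios were tested by exact permutation over the 252 splits of 5 against 5 mice, whose smallest p is 0.00794. Their p-values were adjusted within each comparison, not over the comparisons together. Alternatives were DESeq2 1.42.0, library totals, RLE factors, removal of hemoglobin and 18S genes, no filter, 1 fit of all 15 libraries, a replicate block, restriction to libraries with at least 5000 CPM of Rn18s-rs5, and leaving out each mouse.

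The receptors and gene lists were chosen with earlier results of these data known. Named were the 7 receptors, pathway genes called in late against early ND (at most 12), the 4 most abundant, the largest absolute fold change in each role among tested genes, the 5 genes most correlated with each receptor, and markers as needed.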

Additional observations from a re-analysis of the deposited data

Results flagged for a closer look

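One value stood apart from its group. Ptafr was at 85.2 CPM in late ND mouse 4, against 44.6 to 53.2 CPM in the other 4 late ND mice, and the gap to the nearest made up 0.788 of the group's range, above Dixon's critical value of 0.71 for 5 samples. It was the single such value among 30 groups of values examined, where chance gives about 1 in 20. The same mouse had the highest Fpr1, Fpr2, Cxcr1, Cxcr2 and Ccr1 of all 15 and the highest mean of the mature neutrophil markers, at 9.18 log2 CPM.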

How the results depend on the processing

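In late against early ND, 0 receptors were called higher in the reported fit, 5 with DESeq2, 7 with library totals, 5 without a filter on low counts, 1 with all 15 libraries in 1 fit (Fpr2, beside 2.88% of all genes), and 0 to 6 on leaving out 1 mouse. Genes called higher numbered 333, and 789, 8923, 201, 886 and 4 with DESeq2, library totals, RLE factors, no filter and only 18S-rich libraries (36 to 1057 on leaving out 1 mouse). Genes called lower numbered 330, and 650 and 137 with DESeq2 and library totals, 0 in 18S-rich libraries and 181 with 18S class as a term (106 to 553 on leaving out 1 mouse). In late ND against untreated, receptors called numbered 1 with DESeq2 and 7 with library totals (55.2% of all genes). Genes called higher there were 134, or 281, 7484 and 0 with DESeq2, totals and 18S-rich libraries (0 to 184 on leaving out 1 mouse), and genes called lower 272, or 537, 90 and 0 (0 to 409). In early ND against untreated, 1 gene was called higher with DESeq2, and 1 higher and 2 lower with totals. Over all genes the median log2 difference was 0.86 and 0.91 with library totals and -0.15 and -0.11 with DESeq2, in late ND against early ND and against untreated. Cxcr4 stood at 1.02 in the former with totals.

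Whether the replicate numbers pair the mice is not settled. Correlations of same-numbered deviations ran from -0.171 to 0.443 in late against early ND, with 1 of 5 pairs above 0.1. In early ND against untreated they ran from -0.291 to 0.0706. In late ND against untreated they ran from 0.0267 to 0.562, with 4 of 5 pairs above 0.1. There 3 late ND mice were nearest to the untreated mouse of their own number. With a replicate block, 2 receptors (Fpr1 and Fpr2) and 368 genes (2.76%) were called higher in late against early ND, and 0 receptors and 230 genes in late ND against untreated. Same-numbered pairs gave adjusted p = 0.1875 by exact sign-flip for Cxcr2 to Cxcr4, which dropped by 1.00, and Cxcr2 to Csf3r (-0.43) in early ND against untreated, in a design whose smallest p is 0.0625. With group medians these differences were -1.10 and -0.51 (exact permutation, adjusted p = 0.0714 each), and in 18S-rich libraries -0.92 and -0.43 (adjusted p = 0.107 each, exact permutation). On leaving out 1 mouse they ranged from -1.20 to -0.82 and from -0.53 to -0.34.

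Near zero, signs turned. In late ND against untreated, the Cxcr2 to Cxcr4 difference was -0.24 by medians and -0.20 to 0.13 on leaving out 1 mouse, the Fpr1 to Fpr2 difference 0.0258 in 18S-rich libraries and -0.0929 to 0.0229 on leaving out 1 mouse, and Fpr1 -0.0214 to 0.313. The other receptors kept their direction in all 3 comparisons under all alternatives run. The cause of these changes was not tested. With 8 to 374 counts, Cxcr1 has the least precision, and counts limit the early ND libraries most.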
